A study of Mus musculus with 2 samples.

Results

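The fibroblast growth factor (FGF) genes of SOX9-GFPhi chondrospheres were examined in 2 RNA-sequencing libraries of 1 condition, named replicate 1 and replicate 2. Members were taken by symbol: every listed gene named *Fgf* with a number, the receptor genes *Fgfr1* to *Fgfr4* and *Fgfrl1*, the co-receptor genes *Kl* and *Klb*, and 9 genes that FGF signalling induces or that restrain it. This gave 28 of the 23628 genes listed, namely 12 ligands, 7 receptors or co-receptors and 9 feedback and target genes. Both libraries share genotype, age, sort and culture method, but the labels do not give the culture or its length for each library. GFP-high cells, in which the reporter of *Sox9* (a transcription factor of chondrocytes) was strong and which lacked endothelial, erythroid and leukocyte surface markers, were sorted from femoral heads of homozygous *Sox9*-IRES-EGFP reporter pups at postnatal day 7, and were grown at low density in methylcellulose. Per the study's methods, femoral head cells of this line were kept in a hypoxic chamber. Each colony, or chondrosphere, was held to stem from a single cell. The medium contained recombinant FGF2 together with BMP4, IGF1, LIF, TGF-β1 and serum, so both libraries were exposed to added FGF2, and a culture without it was not analysed here. A biological replicate in the study was 1 pup, but the labels do not tie a library to a pup.

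FGF ligands bind their receptors together with heparan sulfate on the cell surface. The paired receptor kinases then act through the adaptor FRS2 and the RAS-ERK cascade, and the transcription factors ETV4 and ETV5 are among the genes switched on. Sprouty (SPRY) and SPRED proteins and the ERK phosphatase DUSP6 are switched on as well and dampen the cascade, which makes this a feedback loop. In the growth plate, FGFR3 slows the proliferation of chondrocytes, and activating mutations of it cause achondroplasia.

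Values are CPM, reads assigned to a gene scaled by the authors to a common library total, after subtraction of the offset of 0.0001 that every deposited value carries. Paired values are given with replicate 1 first and replicate 2 second throughout, and a ratio is that of replicate 2 to replicate 1 unless stated. From the spacing of low values, gene totals of 43300000 and 42100000 reads were inferred, so that 3 reads, taken as the smallest level that could be shown, correspond to 0.0693 and 0.0712 CPM. Because replicate 1 gave 43.4% of its total to its 10 highest genes and replicate 2 gave 34.7%, ratios between the libraries are also stated relative to the median gene, whose log2 ratio of replicate 2 to replicate 1 was 0.30 across 12631 genes averaging 1 CPM or more. The sorted cell type was present by its markers. All 8 chondrocyte marker genes had at least 1 CPM in both libraries, 4 of 5 endothelial markers and all 3 adipocyte markers were listed at 0, and of 5 leukocyte markers only *Cd68*, with 2.56 and 2.40 CPM, reached 1 CPM in both. With 2 libraries of 1 group no test between groups exists, so differences are set beside the spread between the libraries or beside intervals that cover counting error only.

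At least 1 CPM in both libraries was reached by 13 of the 28 FGF members (46.4%), against 50.3% of all genes listed. By role, these were 3 of 12 ligands, 4 of 7 receptors and 6 of 9 feedback and target genes. A further 4 members reached 1 CPM in only 1 library, and 11 stayed below it in both. All 28 had at least 3 reads in at least 1 library, and 23 had them in both. Another 10 mouse FGF ligand genes were not analysed here, among them *Fgf8* and *Fgf9*.

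**Figure D1:**
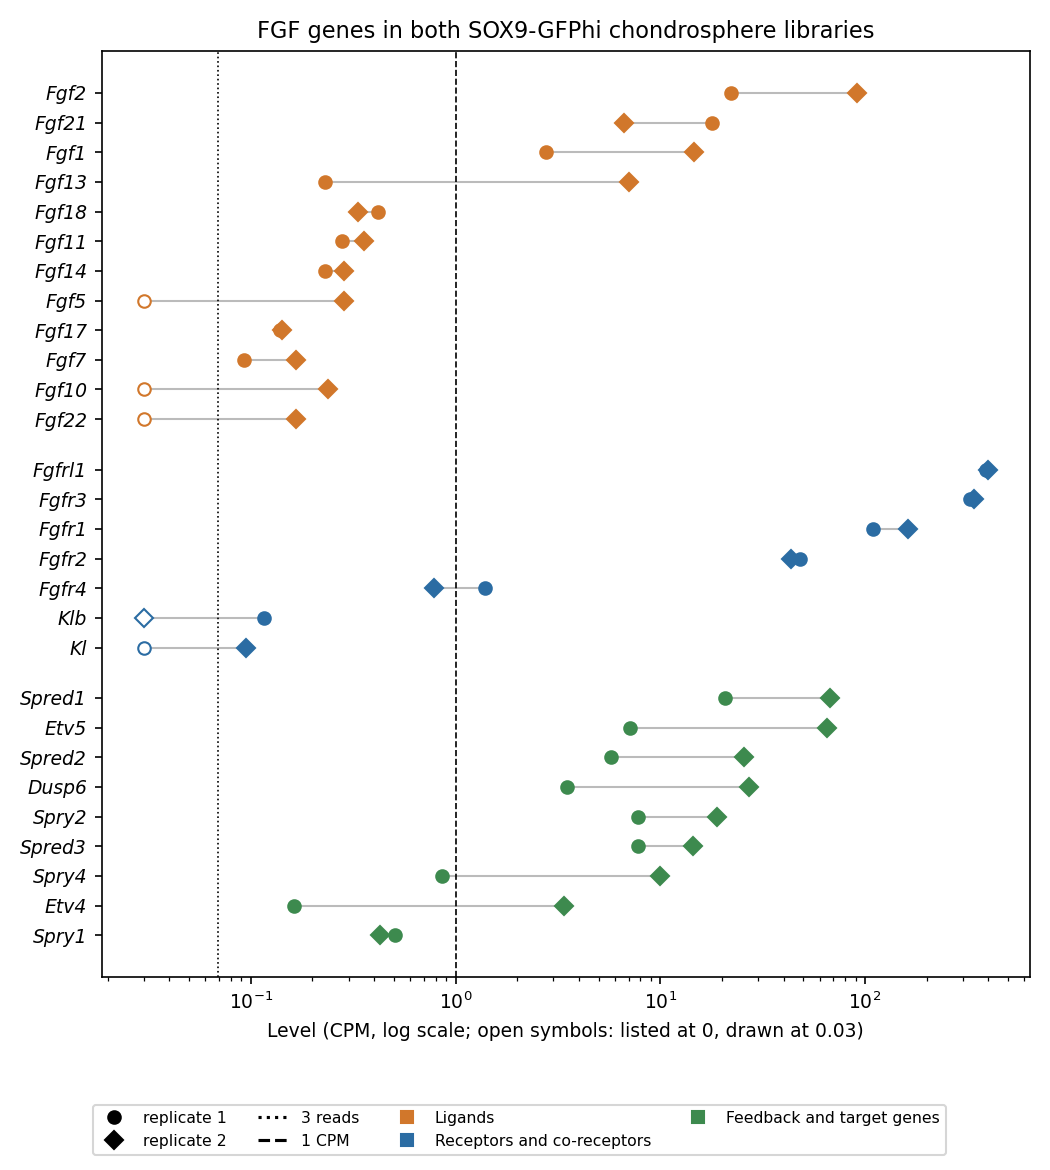
Level of each FGF gene in CPM on a log axis, with circles for replicate 1, diamonds for replicate 2 and a grey line joining the pair. *Fgfrl1* and *Fgfr3* lie highest and their symbols nearly coincide, *Fgfr3* with 324 and 339 CPM, whereas *Fgf2*, *Etv5* and *Dusp6* lie far to the right in replicate 2, and most ligands stay below 1 CPM.

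*Fgfrl1*, *Fgfr3* and *Fgfr1* had the highest mean CPM of the 28 FGF genes, and *Fgfrl1* and *Fgfr3* hardly differed between the libraries. *Fgfrl1*, on chromosome 5 of GRCm38 from 108692382 to 108706924, had 390 and 397 CPM. It encodes a receptor that binds FGF ligands but lacks the tyrosine kinase domain, and it ranked 198 among all genes by mean CPM. *Fgfr3*, on the same chromosome from 33721674 to 33737068, had 324 and 339 CPM. Both genes repeated within a few percent, and for *Fgfr3* the ratio of replicate 2 to replicate 1 was 1.05, with a 95% counting interval of 1.02 to 1.07. *Fgfr1*, on chromosome 8 from 25513654 to 25575718, encodes the kinase receptor typical of perichondrial and hypertrophic cells and had 109 and 162 CPM. *Fgfr2* had 47.9 and 43.7 CPM. It is annotated on chromosome 7 from 130162451 to 133123350, a long span that shares exon bases with the gene *Ctbp2*. *Fgfr4*, on chromosome 13 from 55152640 to 55168759, was close to 1 CPM with 1.39 and 0.783 CPM, or about 60 and 33 reads. Relative to the median gene, *Fgfr1*, *Fgfr2*, *Fgfr3* and *Fgfrl1* differed less than 2-fold between the libraries, and *Fgfr4* was lower in replicate 2 by a log2 ratio of -1.06. The plain ratio of replicate 1 to replicate 2 for *Fgfr4* was 1.77, with a counting interval of 1.14 to 2.80. It thus passed 2-fold only relative to the median gene.

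Levels of different genes were compared per kilobase of annotated exon. On this scale the order was *Fgfrl1* at 141 ± 1.60 CPM per kilobase (SD, n = 2), *Fgfr3* at 46.3 ± 1.48, *Fgfr1* at 13.7 ± 3.84, *Fgfr2* at 4.43 ± 0.291 and *Fgfr4* at 0.306 ± 0.120 CPM per kilobase. The order was the same in both libraries, and every neighbouring pair was further apart than its spread. Within a library, where the scaling cancels, the log2 ratio of *Fgfr3* to *Fgfr1* was 2.04 in replicate 1 and 1.53 in replicate 2, a mean of 1.78 ± 0.36 (SD, n = 2). The log2 ratio of *Fgfr3* to *Fgfr2* was 3.39 ± 0.14, and that of *Fgfr3* to *Fgfrl1* was -1.61 ± 0.03. Among the 4 kinase receptors, *Fgfr3* thus took 73.8% of the summed level per kilobase in replicate 1 and 69.4% in replicate 2, and *Fgfr1* took 18.0% and 24.1%. The log2 ratio of *Fgfr3* to *Fgfrl1* was the one most dependent on length, at -0.25 without division by length. The exons of *Fgfr2* share 314 bases with *Ctbp2* on the same strand, which had 11.9 and 27.7 CPM, and those of *Fgfr3* share 998 bases with *G630022F23Rik* on the opposite strand, which had 2.66 and 2.93 CPM. Values per gene do not separate the splice forms of *Fgfr1*, *Fgfr2* and *Fgfr3* that differ in ligand choice.

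The co-receptor genes were barely present. *Klb*, which encodes the β-Klotho protein needed for FGF21 to signal, had 0.116 CPM (5 reads) in replicate 1 but 0 in replicate 2. *Kl*, which encodes the α-Klotho protein used by FGF23, had 0 in replicate 1 but 0.0949 CPM (4 reads) in replicate 2. At this depth neither gene differed detectably between the libraries beyond a few reads.

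*Fgf2*, *Fgf21* and *Fgf1* were the ligands with at least 1 CPM in both libraries, and each differed between them by more than 2-fold. *Fgf2*, a heparin-binding mitogen of chondrocytes and many other cells, lies on chromosome 3 from 37348346 to 37410108. It had 22.1 and 91.3 CPM, a 4.13-fold ratio with a counting interval of 3.84 to 4.43. *Fgf1*, its nearest relative, had 2.77 and 14.7 CPM, a 5.29-fold ratio with an interval of 4.34 to 6.49. The closely related pair were thus both higher in replicate 2, and the log2 ratio of *Fgf2* to *Fgf1* per kilobase was similar, at 2.69 in replicate 1 and 2.33 in replicate 2. *Fgf21*, which encodes an endocrine FGF that rises in cells under metabolic or endoplasmic reticulum stress, lies on chromosome 7 from 45613886 to 45615490. It went the other way, with 17.9 and 6.64 CPM, a 2.69-fold ratio of replicate 1 to replicate 2 with an interval of 2.35 to 3.10.

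Per kilobase of exon, the leading ligand differed between the libraries. On this scale *Fgf21* took 80.9% of the summed ligand level in replicate 1 and 27.2% in replicate 2, while *Fgf2* took 14.0% and 52.4%. The log2 ratio of *Fgf2* to *Fgf21* per kilobase was -2.53 in replicate 1 and 0.95 in replicate 2, and its mean of -0.79 was smaller than its SD of 2.46. Which of the pair was higher was thus not settled, and without division by length *Fgf2* led in both libraries, with 50.1% and 75.1% against 40.5% and 5.46% for *Fgf21*. The exons of *Fgf2* overlap those of *Nudt6*, which runs antisense to it, over 640 bases, and *Nudt6* had 3.62 and 4.74 CPM. Whether strand was used in counting is not given in the sources used here, but the whole of *Nudt6* was far below *Fgf2* in both libraries.

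**Figure D2:**
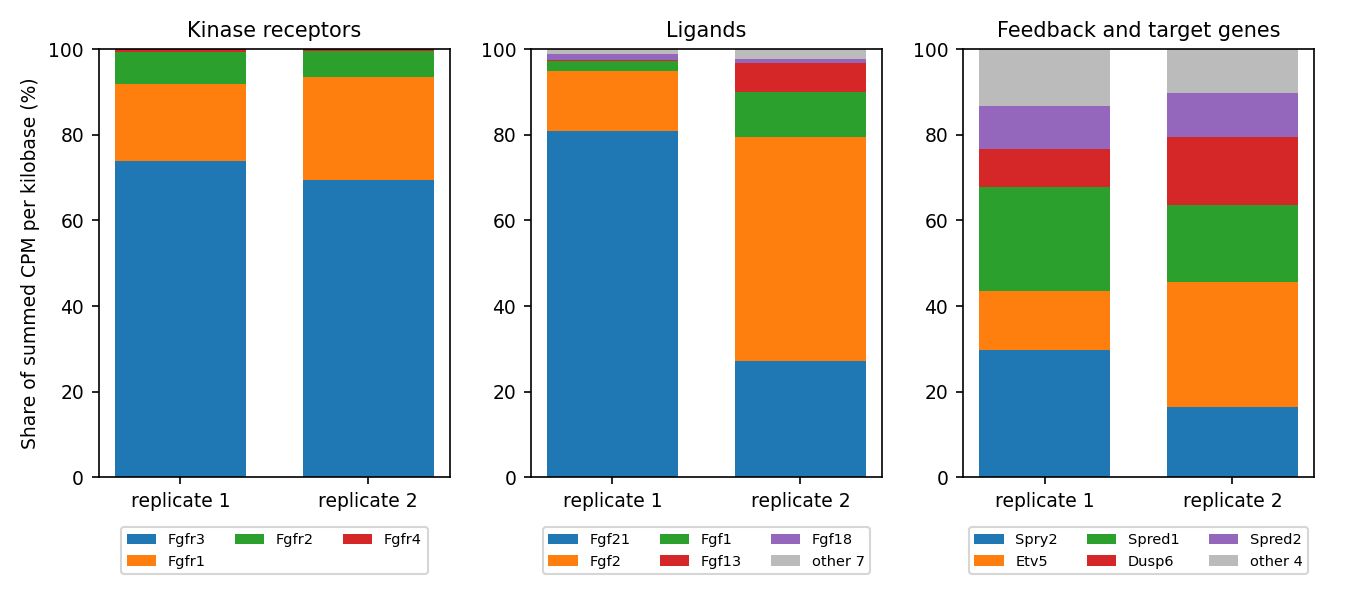
Share of the summed CPM per kilobase of exon (%) taken by each gene in each library, for the kinase receptors, the ligands and the feedback and target genes, with the genes beyond the first 5 pooled in grey. *Fgfr3* fills most of both receptor bars (73.8% and 69.4%), whereas *Fgf21* fills most of the ligand bar in replicate 1 (80.9%) and *Fgf2* the larger part in replicate 2 (52.4%).

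Of the other ligands, only *Fgf13* passed 1 CPM, in replicate 2. *Fgf13*, on the X chromosome, belongs to the FGF-homologous factors that stay inside the cell and bind sodium channels and microtubules, and it had 0.231 CPM (10 reads) in replicate 1 and 6.999 CPM (295 reads) in replicate 2. This 30.3-fold ratio, with a counting interval of 16.2 to 63.8, was the largest of any FGF member with reads in both libraries. Its relatives *Fgf11* and *Fgf14* did not follow it, and had 0.277 and 0.356 CPM and 0.231 and 0.285 CPM. *Fgf13*, *Fgf11* and *Fgf14* were grouped with the ligands by symbol alone, and so enter the ligand counts, sums and shares. *Fgf18*, the ligand that the perichondrium sends to the growth plate, was at 0.416 and 0.332 CPM, or 18 and 14 reads. *Fgf17* of the same subfamily had 6 reads in each library. The interval of the ratio of replicate 1 to replicate 2 ran from 0.588 to 2.72 for *Fgf18* and from 0.260 to 3.64 for *Fgf17*, so a difference was not detectable at this depth. *Fgf7* had 4 and 7 reads. *Fgf5*, *Fgf10* and *Fgf22* were listed at 0 in replicate 1 and had 12, 10 and 7 reads in replicate 2. Exons of *Fgf22* overlap those of *Rnf126* on the opposite strand, which had 27.8 and 38.7 CPM, so its few reads are uncertain.

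All feedback and target genes other than *Spry1* were higher in replicate 2. Relative to the median gene, the log2 ratios of the others ran from 0.57 for *Spred3* and 0.97 for *Spry2* to 3.42 for *Etv4*. *Spred3* and *Spry2* were thus within 2-fold. The upper quartile of all genes averaging 1 CPM or more was 0.29. *Etv5*, which encodes an ETS transcription factor and lies on chromosome 16 from 22381309 to 22439719, had 7.09 and 65.1 CPM, a 9.19-fold ratio with a counting interval of 8.16 to 10.4. *Etv4*, its paralog on chromosome 11 from 101769742 to 101785371, had 0.162 and 3.37 CPM, or 7 and 142 reads, and a 20.8-fold ratio with an interval of 9.85 to 52.8. *Dusp6*, on chromosome 10 from 99263231 to 99267489, had 3.51 and 27.2 CPM, a 7.73-fold ratio with an interval of 6.53 to 9.22. The phosphatase and both ETS factors thus lay far outside counting error, and *Etv5* remained above *Etv4* per kilobase in both libraries, by log2 ratios of 5.05 and 3.87.

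The Sprouty genes did not move as one. *Spry4* had 0.855 and 9.94 CPM, an 11.6-fold ratio with an interval of 8.30 to 16.7. *Spry2*, on chromosome 14 from 105891947 to 105896819, had 7.74 and 18.9 CPM, a 2.44-fold ratio with an interval of 2.15 to 2.78. *Spry1*, on chromosome 3 from 37639947 to 37644598, stayed low, with 0.508 and 0.427 CPM (22 and 18 reads). Per kilobase, *Spry2* was the highest of the 3 in both libraries, although its log2 ratio to *Spry4* went from 4.37 to 2.12.

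All 3 SPRED genes, whose products hold back RAF activation by RAS, were higher in replicate 2, but *Spred3* was within 2-fold. *Spred1*, on chromosome 2 from 117121374 to 117182279, had 20.7 and 67.6 CPM, a 3.26-fold ratio with an interval of 3.03 to 3.52. *Spred2*, on chromosome 11 from 19924375 to 20024026, had 5.73 and 25.7 CPM, a 4.49-fold ratio with an interval of 3.91 to 5.17. *Spred3*, on chromosome 7 from 29158829 to 29170411, had 7.82 and 14.4 CPM, a 1.84-fold ratio with an interval of 1.61 to 2.11. Together the 9 feedback and target genes summed to 54.1 and 233 CPM, while the 7 receptor and co-receptor genes summed to 873 and 943 CPM and the 12 ligands to 44.2 and 122 CPM. The largest share of the feedback level per kilobase lay with *Spry2* in replicate 1, at 29.6%, and with *Etv5* in replicate 2, at 29.0%.

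For comparison, the bases just before a RefSeq start are shown for 2 genes far higher in replicate 2 and for 2 receptor genes that were not. They are written 5′ to 3′ on the strand of the gene. They are the 250 bases before a RefSeq start on GRCm38.p6, namely chr10:99262981-99263230 (plus strand) for *Dusp6*, chr16:22439571-22439820 (minus strand) for *Etv5*, chr5:33721474-33721723 (plus strand) for *Fgfr3* and chr5:108693979-108694228 (plus strand) for *Fgfrl1*. These starts are not always the ends of the gene spans given above. The *Dusp6* window lies just before its gene span, but the *Etv5* and *Fgfr3* windows reach into theirs. The *Fgfrl1* window lies wholly inside its gene span. Capitals mark the letters GGAA on either strand, the core that ETS factors bind, and the longer form CCGGAAG.
Dusp6: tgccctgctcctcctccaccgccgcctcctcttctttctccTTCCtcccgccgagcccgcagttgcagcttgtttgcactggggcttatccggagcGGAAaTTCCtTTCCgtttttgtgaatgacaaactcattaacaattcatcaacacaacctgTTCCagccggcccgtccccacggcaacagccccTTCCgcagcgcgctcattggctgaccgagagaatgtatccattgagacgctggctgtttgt
Etv5: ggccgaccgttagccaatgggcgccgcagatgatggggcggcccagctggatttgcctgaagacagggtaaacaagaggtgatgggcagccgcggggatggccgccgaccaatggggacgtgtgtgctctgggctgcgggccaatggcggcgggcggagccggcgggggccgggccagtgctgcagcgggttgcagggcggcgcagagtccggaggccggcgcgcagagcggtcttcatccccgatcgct
Fgfr3: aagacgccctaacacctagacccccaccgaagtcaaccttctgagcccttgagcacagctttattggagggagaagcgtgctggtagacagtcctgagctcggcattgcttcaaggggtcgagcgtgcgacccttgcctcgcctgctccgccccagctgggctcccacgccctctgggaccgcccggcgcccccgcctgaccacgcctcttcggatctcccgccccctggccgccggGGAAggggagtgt
Fgfrl1: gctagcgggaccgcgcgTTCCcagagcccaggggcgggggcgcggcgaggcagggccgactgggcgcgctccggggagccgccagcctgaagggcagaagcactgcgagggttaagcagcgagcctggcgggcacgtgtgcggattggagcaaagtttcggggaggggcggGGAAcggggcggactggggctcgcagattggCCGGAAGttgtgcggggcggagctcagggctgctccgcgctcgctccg

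The *Dusp6* window held 6 GGAA cores, the *Etv5* window none, the *Fgfr3* window 1 and the *Fgfrl1* window 3. The other RefSeq start of *Etv5* had 4 and that of *Fgfr3* had 5. Of all 32851 windows of this length, 93.4% held at least 1 core, with a median of 3, against 27 of the 28 windows of the 23 matched FGF members. This short core was added after a first look at the longer form. The longer form CCGGAAG was found in 6.91% of all windows and, among the 28 member windows, only in that of *Fgfrl1*. That window lies inside the annotated gene span. The AP-1 letters TGANTCA were found in 1 of the 28 windows, at a start of *Fgf13*, against 6.75% of all windows. The CRE letters TGACGTCA were found in none of the 28, against 1.55% of all windows. The unmatched members were *Etv4*, *Fgf1*, *Fgf17*, *Fgfr1* and *Spry4*.

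**Figure D3:**
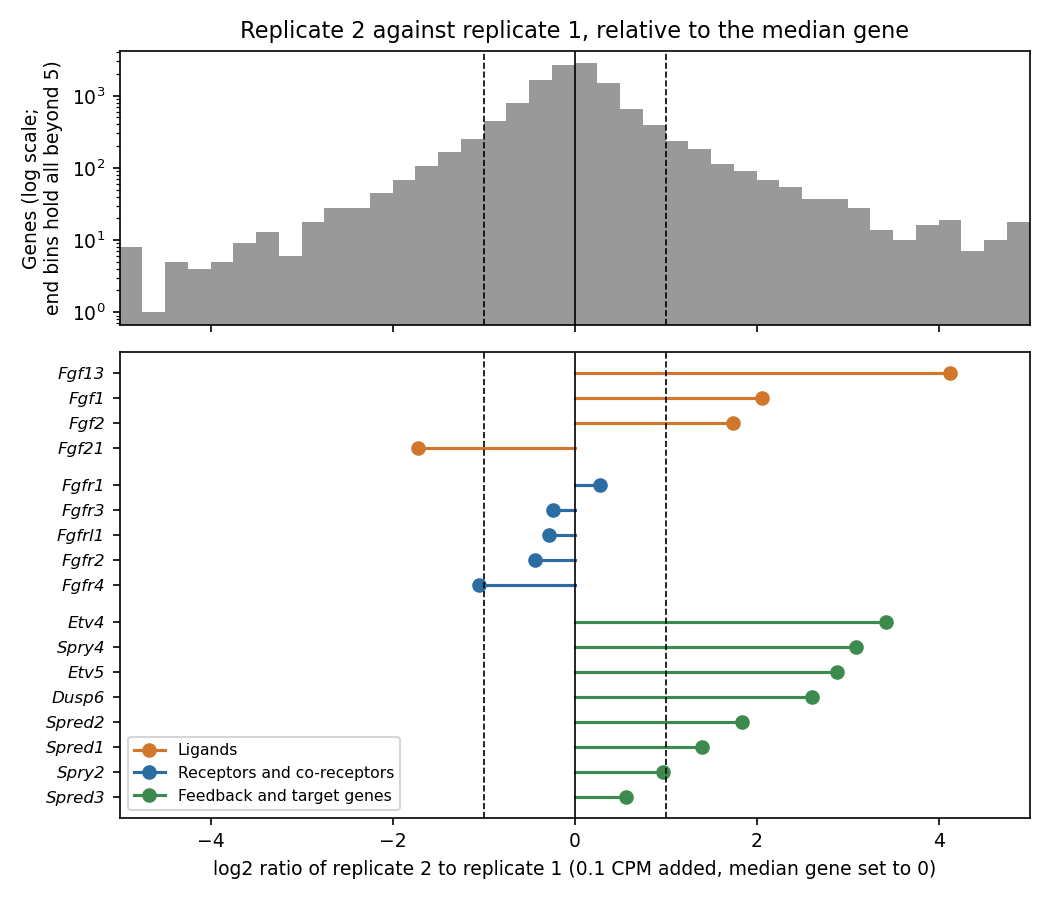
The upper panel shows the log2 ratio of replicate 2 to replicate 1, with 0.1 CPM added and the median gene set to 0, for all 12631 genes averaging 1 CPM or more, and the lower panel shows the 17 FGF members among them. Dashed lines mark 2-fold. The 8 feedback and target genes all lie to the right of 0, from 0.57 to 3.42, and the 5 receptors lie between -1.06 and 0.27. *Fgf13*, *Etv4*, *Spry4* and *Fgfr4* passed the limit on the mean only through the library where they were higher.

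Among all genes averaging 1 CPM or more, 7.43% were more than 2-fold higher in replicate 2 and 6.06% more than 2-fold lower, relative to the median gene. Of the 28 FGF members, 17 had such a mean, and 9 of these 17 were more than 2-fold higher and 2 more than 2-fold lower. The 9 were *Fgf1*, *Fgf2*, *Fgf13*, *Etv4*, *Etv5*, *Dusp6*, *Spry4*, *Spred1* and *Spred2*, and the 2 were *Fgf21* and *Fgfr4*. However, *Fgf13*, *Etv4*, *Spry4* and *Fgfr4* passed the limit on the mean only through the library where they were higher, so their difference was partly set by the limit. Among the 13 members with at least 1 CPM in both libraries, 6 were more than 2-fold higher and 1 lower in replicate 2, against 5.05% and 4.93% of the 11890 genes of that kind. Without centring, 10 members were more than 2-fold higher and 1 lower, against 11.4% and 3.71% of all genes. By role, the median log2 ratio was 2.23 for 8 feedback and target genes, 1.90 for 4 ligands and -0.28 for 5 receptors, against 0 for all genes. The ligand median rests on few genes, *Fgf13* among them, and was 0.68 with every gene above 0 and -0.0105 with a mean limit of 10 CPM, which only *Fgf2* and *Fgf21* pass. The members share libraries and are not independent of each other.

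The FGF genes were not alone in this difference, and other measurements moved with it. The summed CPM of 8 chondrocyte markers was 164861 in replicate 1 and 113790 in replicate 2, most of it *Col2a1* with 148953 and 100682 CPM. Relative to the median gene, *Matn3* (741 and 53.1 CPM) and *Snorc* (259 and 128 CPM) were the 2 of the 8 more than 2-fold lower, against 6.06% of all genes. *Sox9* had 252 and 279 CPM and *Hapln1* had 396 and 544 CPM. The 5 osteoblast and osteocyte markers summed to 4.86 and 52.7 CPM, of which *Dmp1* alone gave 0.116 and 40.4 CPM, and *Bglap* stayed at or below 0.23 CPM. Of the 4 averaging 1 CPM or more, 3 were more than 2-fold higher in replicate 2, against 7.43% of all genes. However, *Dmp1* and *Alpl* passed the limit on the mean only through replicate 2. The muscle markers summed to 9.23 and 3.05 CPM, most of it from *Tnnt3* (9.01 and 2.18 CPM), whereas *Acta1* had 0.122 and 0.864 CPM. The leukocyte markers summed to 3.26 and 3.496 CPM, and the erythroid, neural and epithelial markers to less than 2 CPM each. The 6 fibroblast markers summed to 1497 and 742 CPM, nearly all of it from *Dcn* (879 and 267 CPM) and *Col3a1* (616 and 471 CPM). *Pdgfra* had 2.03 and 2.71 CPM, *Thy1* and *Dpt* stayed below 1 CPM, and *Pi16* was listed at 0 in both. In such bulk libraries, more cells of one kind and more RNA per cell cannot be told apart. The part of cell makeup in the FGF values was not tested.

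Genes of the FGF pathway outside the family were taken as 50 genes in 5 classes, and 43 of them (86%) had at least 1 CPM in both libraries, against 50.3% of all genes listed. The genes described on the route from receptor to ERK were all present. The 12 adaptors and enzymes that act at the receptor and the 9 genes of the RAS-ERK cascade described here had at least 1 CPM in both libraries. None of these genes differed more than 2-fold, where 7.43% of all genes were higher and 6.06% lower. All but *Frs3* averaged at least 10 CPM, and of all genes at that level only 3.75% were higher and 3.35% lower. A count of none among so few genes is near that share. The highest adaptors per kilobase were *Shc1* at 16.2 and *Crk* at 16.1 CPM per kilobase, and the lowest were *Frs3* at 1.07 and *Sos2* at 1.55. *Frs2*, the adaptor that docks on FGF receptors, is added for its role and had 41.8 and 48.8 CPM. In the cascade, the kinase genes *Mapk3* (ERK1) and *Map2k2* were highest at 28.0 and 13.1 CPM per kilobase, and *Braf* lowest at 2.47. The median log2 ratio between the libraries was 0.28 for the adaptors and 0.12 for the cascade.

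The 12 other ERK-induced and inhibitory genes went apart. Of the 11 averaging 1 CPM or more, 5 were more than 2-fold higher and 3 more than 2-fold lower in replicate 2, against 7.43% and 6.06% of all genes. Of the 5, *Dusp4*, *Dusp5*, *Etv1* and *Fosl1* passed the limit on the mean only through replicate 2, so their direction was partly set by that limit. By level, *Phlda1* and *Ccnd1* were highest at 59.3 and 27.8 CPM per kilobase, and *Il17rd* and *Etv1* lowest at 0.0214 and 0.325. Of the genes that follow, all but *Etv1* and *Ccnd1* were picked after their values had been seen. *Etv1*, the third gene of the *Etv4* and *Etv5* subfamily, had 0.139 and 8.49 CPM. The ERK phosphatase genes *Dusp4* and *Dusp5* had 0.624 and 12.0 CPM and 0.240 and 3.92 CPM. *Fosl1*, a late AP-1 gene, had 0.722 and 20.5 CPM, and *Ccnd1* (cyclin D1) had 54.2 and 207 CPM. Of these 5, only *Ccnd1* had at least 1 CPM in both libraries. The immediate-early genes did not move as one. Lower in replicate 2 were *Fos* at 54.3 and 5.60 CPM, *Egr1* at 112 and 45.7 CPM and *Dusp1* at 88.8 and 39.8 CPM, whereas *Ier3* had 9.52 and 10.6 CPM and *Myc* 15.2 and 34.3 CPM. Such genes also respond to stress and to handling of cells, and their part in the FGF values was not tested.

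**Figure D4:**
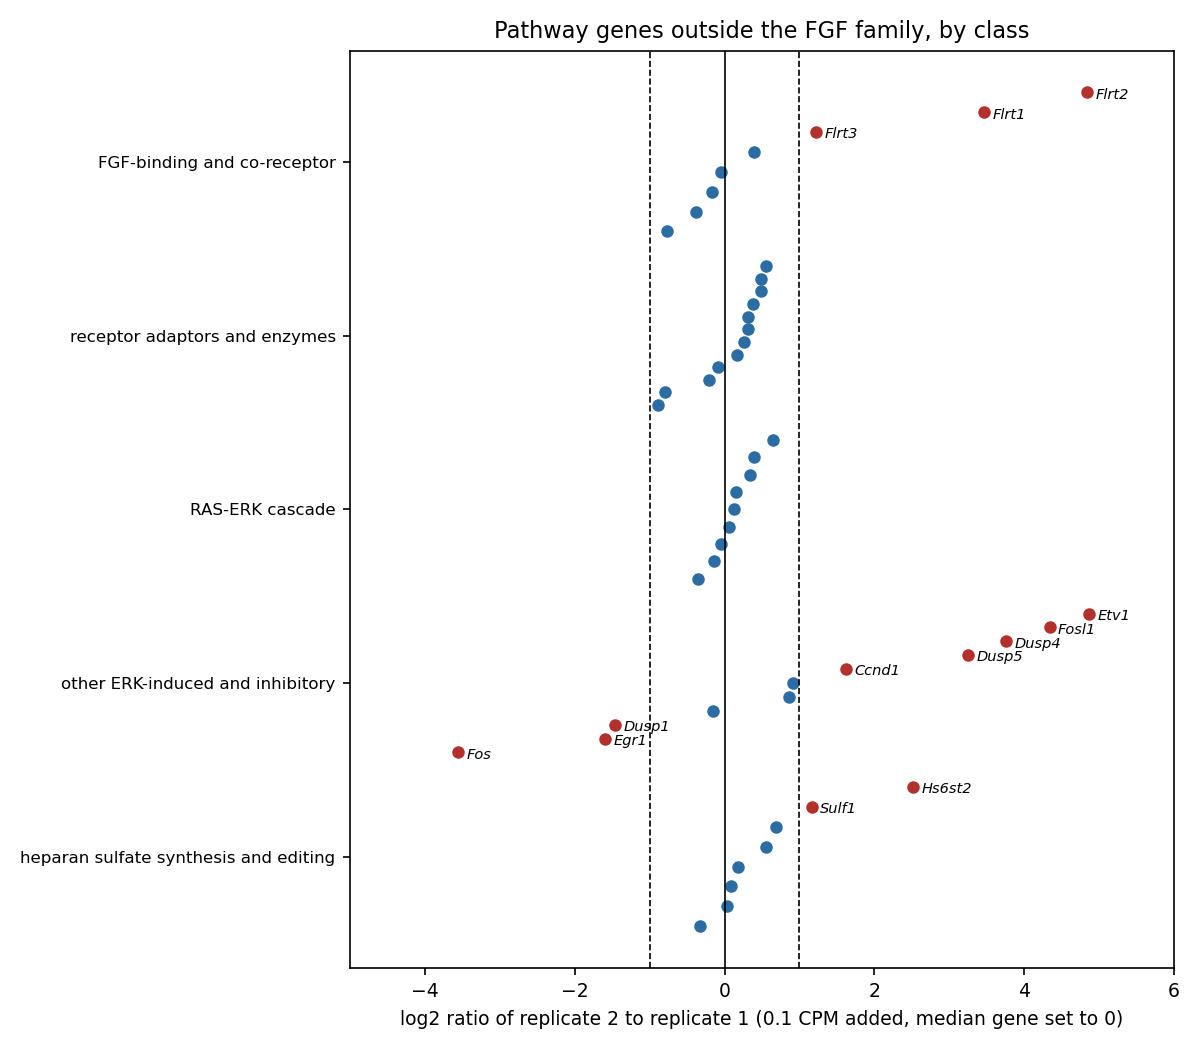
Log2 ratio of replicate 2 to replicate 1, with 0.1 CPM added and the median gene set to 0, for the 48 of 50 pathway genes averaging 1 CPM or more, by class. Dashed lines mark 2-fold and red points lie beyond them. The adaptors and the RAS-ERK cascade stay within the lines, whereas ERK-induced genes lie on both sides, from *Fos* at -3.56 to *Etv1* at 4.87.

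At the cell surface, the proteoglycan genes were high and the FLRT genes differed. *Sdc3* (syndecan 3) and *Hspg2* (perlecan), which carry heparan sulfate, were highest at 317 and 99.8 CPM per kilobase and differed less than 2-fold. *Fgfbp1*, which encodes a carrier of FGFs, was listed at 0 in both libraries, and *Flrt3* was the next lowest at 0.480 CPM per kilobase. Of the 8 FGF-binding and co-receptor genes averaging 1 CPM or more, 3 were more than 2-fold higher in replicate 2, against 7.43% of all genes. These were the 3 genes for FLRT proteins, transmembrane partners of FGF receptors, but *Flrt1* passed the limit on the mean only through that library. *Flrt1* and *Flrt2* are named after their values were seen. *Flrt2* had 1.99 and 73.8 CPM, *Flrt1* had 0.578 and 9.18 CPM, and *Flrt3* had 1.16 and 3.51 CPM. All 8 genes of heparan sulfate synthesis and editing had at least 1 CPM in both libraries. The sulfatase genes *Sulf1* and *Sulf2* were highest at 28.7 and 21.6 CPM per kilobase, and the sulfotransferase genes *Hs6st2* and *Hs2st1* lowest at 2.07 and 2.95. Of the 8 genes of the class, *Sulf1* and *Hs6st2* were more than 2-fold higher in replicate 2, against 7.43% of all genes. They had 172 and 477 CPM and 3.93 and 28.4 CPM.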

How the data were processed

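Stranded libraries of poly(A) RNA were sequenced from a single end. Per the labels and the study's methods, the authors aligned them to GRCm38 (mm10) with STAR 2.7.3a in Partek Flow 10.0.21.0801, assigned them to GENCODE M25 genes with Partek E/M, which can divide a read among genes, and deposited CPM values (counts scaled to a common total), with 0.0001 added to each. This offset was subtracted here. Of values below 0.5 CPM, 63.8% and 63.0% were whole multiples of 1 read (tolerance 0.02 reads), and whole reads could therefore not be recovered for a count model. Read numbers in the text are CPM divided by the value of 1 read, rounded. Ratios carry exact (Clopper-Pearson) 95% intervals for counting error only, since reads without molecular identifiers are not independent molecules.

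Levels were divided by the exonic length of GENCODE M21 (same build, older annotation), which matched 22967 of 23628 gene names (97.2%) and all 28 members. For log2 ratios, 0.1 CPM was added and the median of genes averaging 1 CPM or more was set to 0, which makes ratios of low genes smaller than they are. Folds of single genes are plain CPM ratios. Every member with 3 reads in a library was named, as were the 2 highest and 2 lowest genes per kilobase of each pathway class, apart from a few pathway genes that are not reported here. Members and lists were chosen with earlier results of these data known. Windows before RefSeq starts were taken on GRCm38.p6. Alternatives covered scaling, length, pseudocount, filter, centring, detection limit and leaving out each library. Computation used scipy 1.17.1, pandas 2.3.3 and numpy 2.4.6 under Python 3.11.15, and plots matplotlib 3.10.9.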

Additional observations from a re-analysis of the deposited data

How the results depend on the processing

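Of 160 values recomputed for 36 results with 1 choice changed, 130 stayed within the SD between libraries (or within 1.5 times for a count), 29 moved further and 1 reversed. For the medians by role, a limit of 0.589, derived from the spread over all genes, stood in for that SD. Of the 130, 62 come from leaving out a library. Apart from a few detection counts among the 62, this moves a mean of 2 by less than 1 SD by arithmetic. The reversed value was the median log2 ratio of the ligands, at -0.0105 with a mean of at least 10 CPM, where only *Fgf2* and *Fgf21* pass. It was 0.68 with every gene above 0. The same filter of 10 CPM gave 1.60 for feedback genes, with 5 members more than 2-fold higher and 1 lower. A single member, *Fgf21*, was lower with a pseudocount of 1 CPM and without centring. With a limit of 3 reads, 23 members were detected in both libraries. Without division by length, the log2 ratio of *Fgfr3* was 1.32 to *Fgfr1*, 2.86 to *Fgfr2*, 8.31 to *Fgfr4* and -0.25 to *Fgfrl1*, and with the longest coding transcript it was 2.88, 7.96 and -1.11 to the latter 3. Shares of the receptor level without length were 64.6% for *Fgfr3*, 26.2% for *Fgfr1*, 8.97% for *Fgfr2* and 0.215% for *Fgfr4*, and with the longest coding transcript 67.5% for *Fgfr3* and 9.21% for *Fgfr2*. The ligand share of *Fgf2* was 62.6% without length. Leaving the 10 highest genes out of the per-million total raised the mean CPM of 8 members by more than their SD, as a smaller total requires. No paired analysis was possible because there is 1 group, and ratios between the libraries have no value when a library is left out. Members below about 20 reads are limited by depth.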
